A study of Mus musculus with 20 samples.

Results

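The mitochondrial ribosomal protein genes encode the protein components of the ribosome inside mitochondria. They were chosen here by name, as the protein-coding genes whose mouse symbol begins with Mrpl or Mrps followed by a number. The rule found 78 genes among the 19463 in the table, and all 78 passed the filter on low values (a mean of at least 10 over the mice compared). Of these, 51 encode proteins of the large subunit and 26 encode proteins of the small subunit. The remaining gene, Mrps36, carries a ribosomal name but encodes a component of the 2-oxoglutarate dehydrogenase complex. Mrps18a and Mrps30 also have small-subunit names, although their products sit in the large subunit, and they are counted there.

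Mitochondria keep a small genome of their own. It encodes a handful of subunits of the respiratory chain and ATP synthase, which are translated by a dedicated ribosome, the mitoribosome. The ribosomal RNAs of this particle come from the mitochondrial genome, whereas its proteins are encoded in the nucleus, translated in the cytosol and imported. Some of these proteins have counterparts in bacterial ribosomes and others are found only in mitochondria. Neurons depend on oxidative phosphorylation, and inherited defects of mitoribosomal proteins include disorders of the brain and heart.

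Whole brains of male C57BL/6J mice were profiled by poly-A RNA sequencing at 3 weeks (P21) and 10 weeks (P70) of age, in wild-type (WT) and Katnal2 knockout (KO) animals. There were 5 mice in each of the 4 groups and 20 in total, and each library came from 1 mouse. The KO allele derives from Katnal2tm1a(EUCOMM)Wtsi, whose cassette was removed with Protamine-Flp and whose floxed exon 3 was deleted in early embryos with HTNC, a Cre recombinase that enters cells. KO mice are homozygous for the deletion, which shifts the reading frame and is present in all cells. It comes from a single targeted allele. WT and KO mice were otherwise untreated. Katnal2 is a microtubule-associated relative of the katanin severing proteins.

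The values are normalised read counts estimated per gene, and a level below refers to that scale unless it is given per kilobase (kb) of transcript. A log2 fold change is a difference of mean log2(value + 1). A gene was called at a Benjamini-Hochberg adjusted p under 0.05 in limma, adjusted over all genes tested. The step between low values put the depth at about 26000000 to 36000000 reads in P21 libraries and 23300000 to 27700000 in P70 libraries, so depth and age cannot be told apart. At P70, mouse 5 of the KO group (27700000) and mouse 5 of the WT group (26300000) were the deepest. The other P70 libraries were at 23300000 to 24400000. Katnal2 itself ran from 78.1 to 96.0 in P21 KO mice and from 99.3 to 115 in P21 WT mice, with no overlap. At P70 the KO values (95.1 to 125.5) overlapped the WT values (101 to 141.5). A gene total does not isolate the deleted exon, so it is a weak check of the labels. Markers of mature neurons, astrocytes and oligodendrocytes were present in each library. In bulk tissue, fewer cells of a type and less RNA per cell cannot be told apart.

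Within their own groups, 4 libraries stood apart for the mitoribosomal genes. These were mouse 3 of both P21 groups and mouse 5 of both P70 groups. Counts of genes called with age are also given without mouse 5 of both P70 groups, and so are several of the estimates that this mouse moved.

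Promoter sequence was available from RefSeq (GRCm38.p6) for 69 of the 78 genes. The 250 bases before the annotated start held a median of 17 CpG dinucleotides, against 6 over all 27025 promoters in the table. The ETS-family letters CCGGAAG were found on either strand in 17 of the 69 members (24.6%) and in 7.05% of all promoters. The NRF1 letters GCATGCGC were found in 8 members (11.6%) and in 2.32% of all promoters. NRF1 is a transcription factor known for its targets among nuclear genes of mitochondrial function. The SP1 letters GGGCGG were in 33 members (47.8%) against 32.9% of promoters, and the YY1 letters AAGATGGC were in 4 members (5.80%) against 1.59%. The E-box CACGTG (5 members, 7.25% against 6.05%) and the box CCAAT (25 members, 36.2% against 34.5%) were at shares nearer to those of all promoters. A match is a run of letters and not a measured binding site.

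The following stretches show these letters in capitals, read 5′ to 3′ on the strand of the gene. They belong to members described below, apart from Mrpl22, which is shown because ETS and NRF1 letters lie in a single stretch. Each lies upstream of the start and outside annotated exons.
Mrpl10, chr11:97041428-97041475, plus strand, NRF1: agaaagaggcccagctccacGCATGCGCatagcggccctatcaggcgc
Mrpl22, chr11:58171591-58171658, plus strand, ETS then NRF1 reversed: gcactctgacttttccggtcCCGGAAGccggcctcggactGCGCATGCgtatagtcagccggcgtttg
Mrpl58, chr11:115403715-115403751, plus strand, ETS: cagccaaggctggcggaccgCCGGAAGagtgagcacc
Mrps22, chr9:98601680-98601710, minus strand, ETS: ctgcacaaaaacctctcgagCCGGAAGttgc
Mrps27, chr13:99344718-99344764, plus strand, ETS reversed: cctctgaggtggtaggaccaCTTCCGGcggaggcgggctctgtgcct

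In these 5 examples the motifs lie at different distances from the start. In Mrpl22 the ETS letters span bases -53 to -47 and the NRF1 letters bases -33 to -26. In Mrpl58 and Mrps22 the ETS letters end at bases -11 and -5, close to the annotated start. The 23 members with ETS or NRF1 letters had a median level of 408 per kb in P21 WT brain, and the 46 members with a promoter but neither motif had 428 per kb. Their median log2 fold changes with age in WT mice were 0.01 and 0.02.

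All 78 members were expressed in brain. In P21 WT mice their mean levels ran from 103 (Mrpl23) to 1622 (Mrpl3), with a median of 652. Per kb of the principal transcript, the order began with Mrpl42 at 1212 ± 102 (SD, n = 5), followed by Mrpl20 at 1194 ± 128, Mrps21 at 1128 ± 101 and Mrpl41 at 1101 ± 86.2. These neighbours differ by less than 1 SD. The lower end held Mrpl17 at 105 ± 17.5, Mrpl1 at 108 ± 5.43 and Mrpl47 at 109 ± 9.39, again within 1 SD of each other. Large-subunit genes had a median of 424 per kb and small-subunit genes 387 per kb. The levels per kb use 1 transcript length per gene, and a gene that uses a shorter form in brain would be understated. The order of the genes was nearly the same in P70 WT mice, with a Spearman's rho of 0.991 over the 78 genes as a description.

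**Figure D1:**
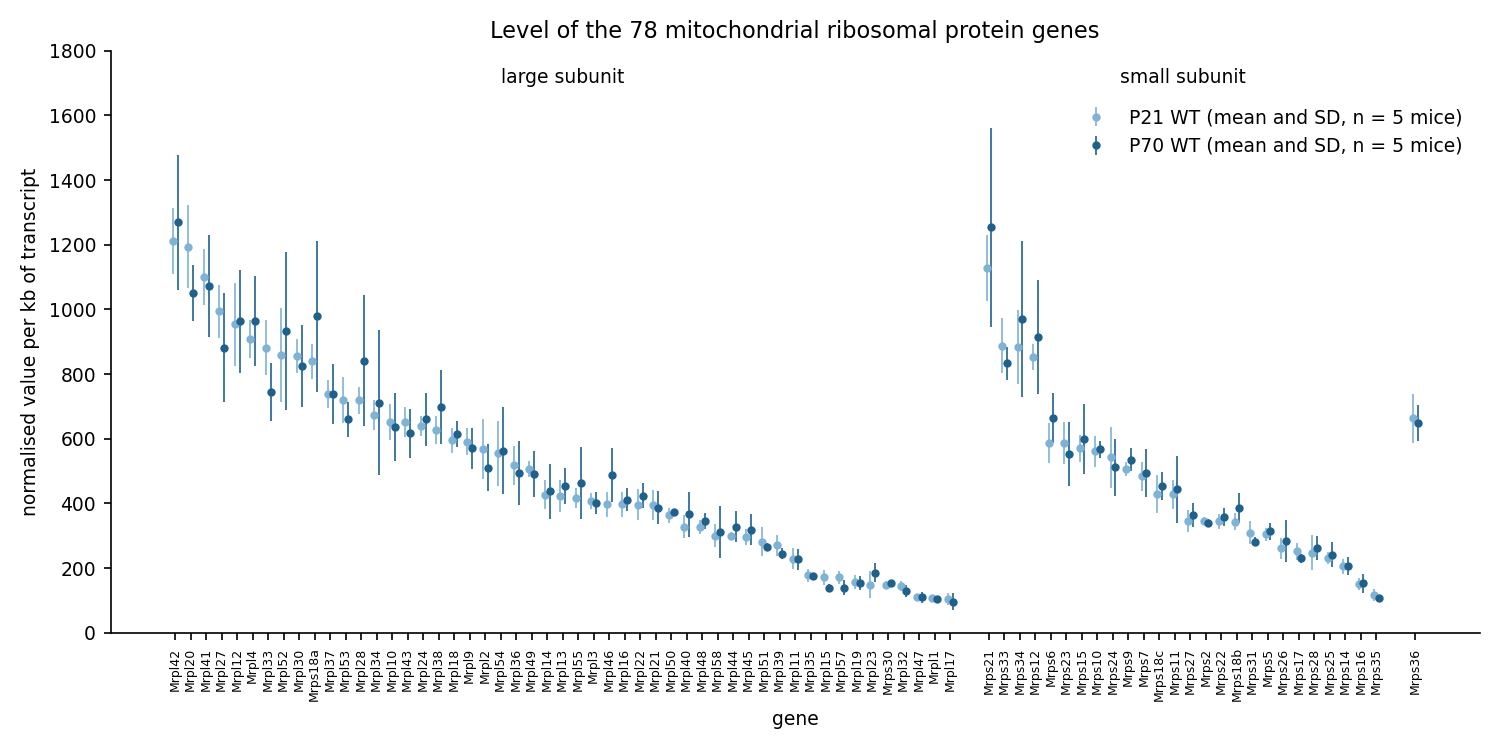
Level per kb of transcript (normalised value divided by the length of the principal transcript, linear axis) of the 78 genes, grouped by subunit and ordered by the P21 WT mean; points are means and bars SDs of 5 WT mice at P21 (light) and P70 (dark), with Mrps36 on its own at the right. Levels span from 105 to 1212 at P21, and the SD bars at the 2 ages overlap for most genes.

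Members with assigned functions spanned this range. Mrpl12 and Mrpl10, which form the flexible stalk of the large subunit where translation factors dock, were at 953 ± 129 and 653 ± 56.0 per kb. Mrps12, the counterpart of the bacterial protein of the decoding centre, was at 852 ± 39.9 per kb. Mrpl3, a conserved large-subunit protein, had the highest gene total but 408 ± 24.9 per kb, since its transcript is 3972 bases long. Mrps16 (150.3 ± 19.3), Mrps22 (345 ± 23.5) and Mrpl44 (298 ± 12.8 per kb) are members in which human mutations cause mitochondrial disease. Mrpl58, a peptidyl-tRNA hydrolase built into the large subunit that releases stalled chains, was at 301 ± 35.3 per kb.

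The mouse carries 3 paralogs of the bacterial small-subunit protein S18, and they were expressed at different levels. Mrps18a, whose product is in the large subunit, was the highest at 840 ± 54.0 per kb (SD, n = 5, P21 WT). Mrps18c followed at 430 ± 59.2 per kb and Mrps18b at 344 ± 25.6 per kb. The order was the same in the other groups, at 978, 455 and 386 per kb in P70 WT mice. Mrps18b shares 64.3% of its 31-base words with transcripts of other genes, so its level is less certain.

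Sequence shared with other genes limits some members. Of the 78, 23 share no 31-base word with a transcript of another gene, and 6 share over 50%. Mrpl53 shares 100% of its words with Gm42688, an overlapping gene model, and Mrpl23 shares 77.0% with the pseudogene Mrpl23-ps1. That pseudogene fits the name pattern but is not protein-coding, and it was left out by the rule. Its values in P21 WT mice were 327.5, 377, 448, 372 and 425. The gene Mrpl23 stood at 126, 63.7, 82.7, 132 and 111 in the same mice. Because the kit does not mark strand, reads from overlapping antisense genes also cannot be separated.

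The first question was whether transcripts of the mitoribosome changed in level between weaning and adulthood. In WT mice 0 of the 78 members were called between P21 and P70, and 0 had groups that did not overlap. Over all 17630 genes tested, 9.32% were called (815 higher and 828 lower at P70) and 10.8% did not overlap. At an unadjusted p under 0.05 there were 4 members (1 higher, 3 lower), or 4 of 78, where 24.5% of all genes passed. The members' median log2 fold change was 0.02, with 43 above and 35 below 0, against a median of 0.00 over all genes. The 95% interval lay within 1.5-fold in either direction for 77 of 78 members.

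In KO mice the age comparison also called 0 of 78 members, and again 0 had non-overlapping groups. The shares over all 17641 genes were 8.32% and 10.9%. At an unadjusted p under 0.05 there were 5 members (4 higher, 1 lower), where 22.7% of all genes passed. The median log2 fold change was 0.02, and the interval lay within 1.5-fold for 77 of 78. The smallest adjusted p of any member was 0.094 in WT mice (Mrpl15) and 0.098 in KO mice (Mrpl39).

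**Figure D2:**
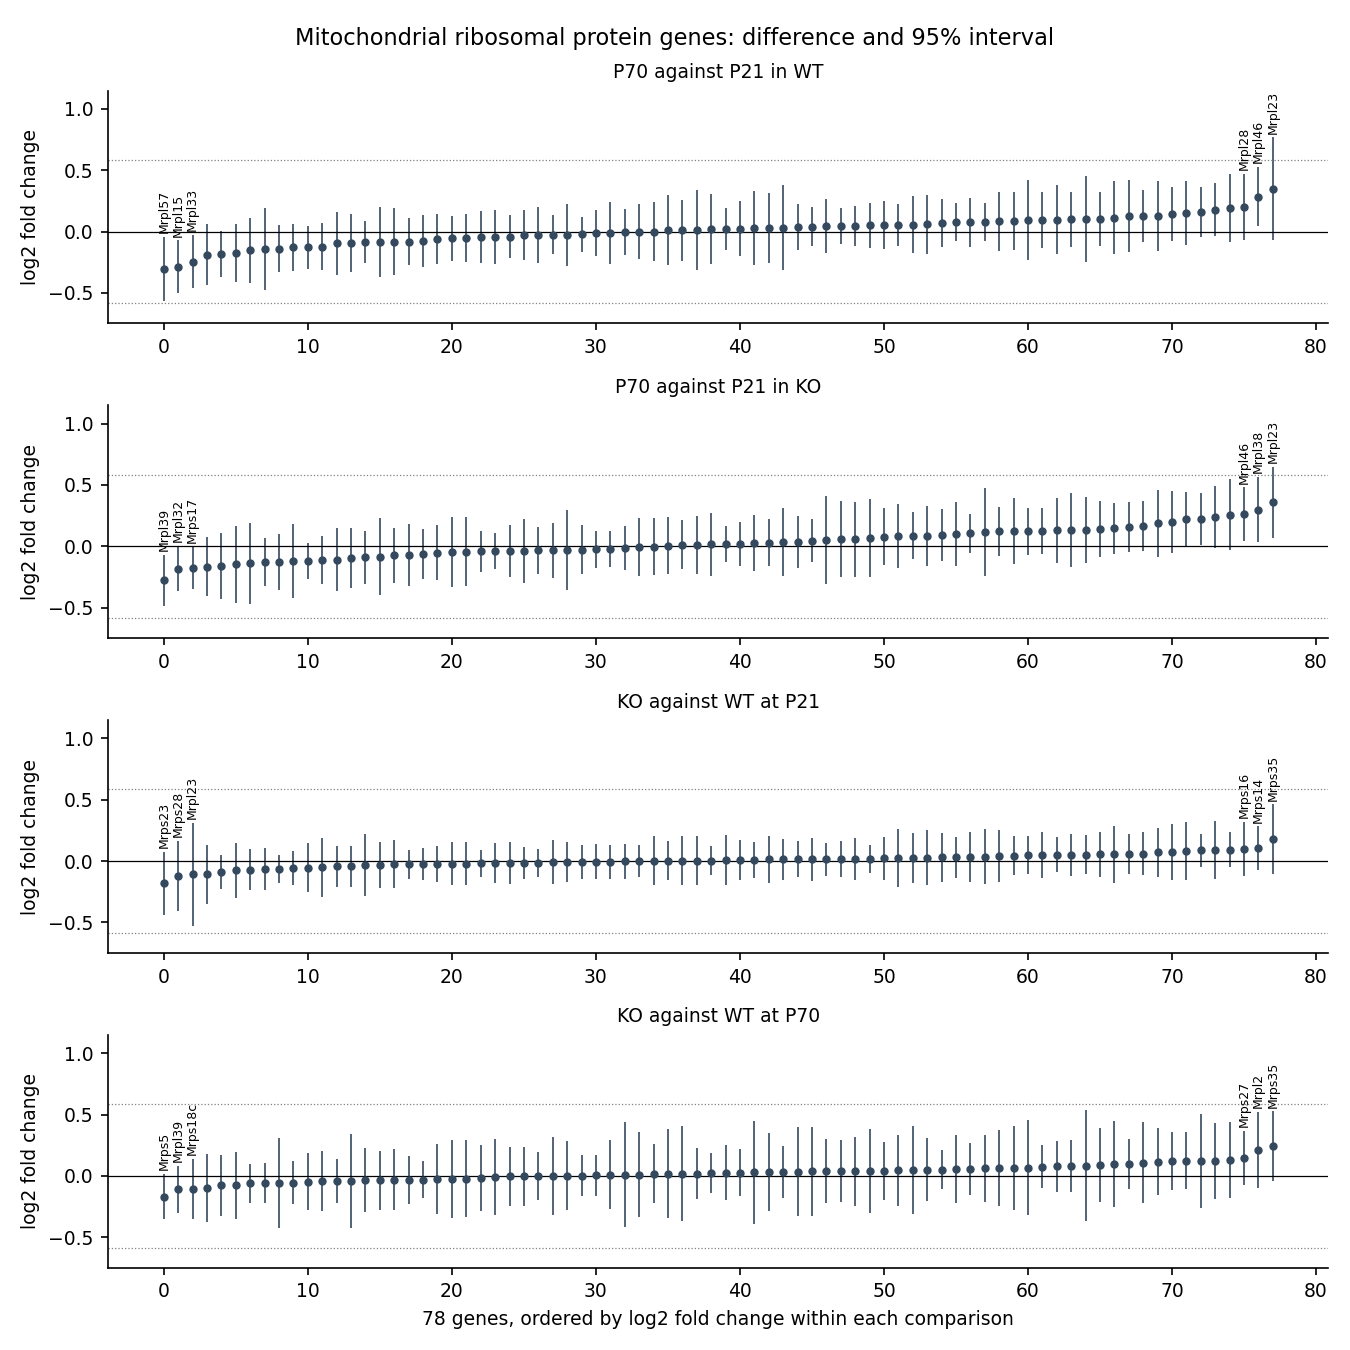
Log2 fold change of each of the 78 genes (points, ordered within each panel) with its 95% interval from limma (bars), n = 5 mice per group; dotted lines mark 1.5-fold, and the 3 lowest and 3 highest genes are named. In each panel the points lie close to 0, and Mrpl23 with age is the gene whose interval passes 1.5-fold in both genotypes.

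The members nearest to a call with age are described by mouse. Mrpl46, a mitochondria-specific large-subunit protein (chr7:78775236-78783531, minus strand), was at 446.5, 398, 511, 422 and 475 in P21 WT mice and at 554.5, 515, 499.5, 481 and 713 in P70 WT mice. In KO mice it was at 448.5, 458, 517, 448 and 469.7 at P21 and at 506, 610.0, 541, 487 and 688 at P70. The ages overlapped in both genotypes, with mouse 5 the highest at P70. The log2 fold change was 0.28 ± 0.11 (SE, adjusted p = 0.134 in limma) in WT mice and 0.26 ± 0.10 (adjusted p = 0.134) in KO mice. Without mouse 5 the WT estimate was 0.19. Mrpl46 lies head to head with Mrps11. The RefSeq starts are 42 bases apart and do not overlap, whereas in the GENCODE annotation used for the levels Mrps11 begins at base 78783119, inside the span of Mrpl46, and 12.2% of the exon bases of Mrpl46 are shared with another gene. Mrps11, named here for that position after its values were seen, had a log2 fold change of 0.03 ± 0.13 in WT and -0.04 ± 0.13 in KO mice, and of -0.10 and -0.17 without mouse 5.

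Mrpl23, a large-subunit protein of the bacterial type near the exit of the polypeptide tunnel, had the highest point estimate in both genotypes. At P70 it was at 145, 104, 115, 126 and 152 in WT mice. In KO mice it was at 74.2, 95.4, 117, 97.1 and 83.0 at P21 and at 112, 125, 131, 107.5 and 119 at P70. The log2 fold change was 0.35 ± 0.19 in WT (limma adjusted p = 0.296) and 0.36 ± 0.13 in KO mice (limma adjusted p = 0.123). Without mouse 2 of the P21 WT group the WT estimate was 0.19. With the values of Mrpl23-ps1 added, the log2 fold change fell to 0.12 ± 0.13 and 0.10 ± 0.11. How reads were split between the gene and its copy was not tested.

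Mrps6, a small-subunit protein of the bacterial type, was at 468, 451, 552, 459 and 554 in P21 WT mice and at 628, 549, 459.8, 571 and 608 at P70. The groups overlapped, and the log2 fold change was 0.18 ± 0.10 (SE). Mrpl38, a mitochondria-specific large-subunit protein, was at 797.5, 937, 901, 709.8 and 892 in P21 KO mice. At P70 it was at 974.5, 919, 962, 982 and 1424 in KO mice, so that only the value of 919 fell under the highest P21 value. Its log2 fold change in KO mice was 0.30 ± 0.12 (limma adjusted p = 0.168), and without mouse 5 it was 0.19.

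Among members with lower values at P70, Mrpl57, a short mitochondria-specific protein of the large subunit, had the lowest estimate in WT mice. It was at 412, 489.7, 579, 479 and 503 at P21 and at 423, 390.0, 375, 315 and 498 at P70. The log2 fold change was -0.31 ± 0.12 (limma adjusted p = 0.138). Mrpl15, a bacterial-type protein of the large subunit, was at 635, 720.5, 798, 607 and 843 in P21 WT mice and at 633, 575.5, 535, 559.6 and 632 at P70. Its log2 fold change was -0.29 ± 0.10, with the groups overlapping by a narrow margin.

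Mrpl33, a small bacterial-type protein of the large subunit, was at 402, 390.3, 465, 385 and 467 in P21 WT mice and at 384, 333, 308.5, 339.9 and 415 at P70. That is a log2 fold change of -0.25 ± 0.10 (limma adjusted p = 0.149). In KO mice the lowest estimate was that of Mrpl39, a mitochondria-specific large-subunit protein. It was at 685, 544, 717.5, 587 and 628 at P21 and at 495, 607, 506, 482 and 513 at P70, a log2 fold change of -0.28 ± 0.10. Mrps17 (-0.17 ± 0.08) and Mrpl32 (-0.18 ± 0.09) came next in KO mice.

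**Figure D3:**
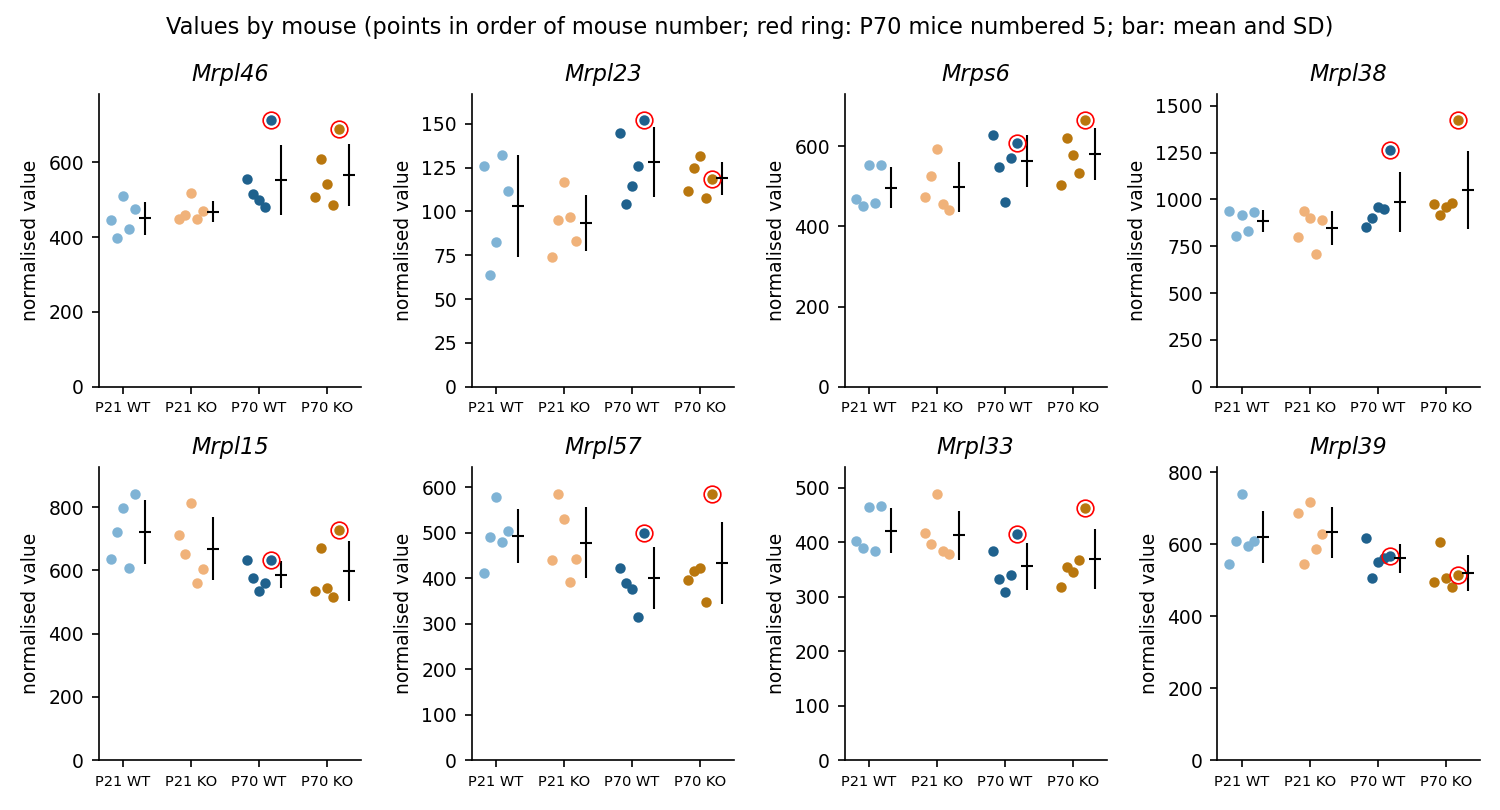
Normalised values (linear axis from 0) of 8 members in the 20 mice, in order of mouse number within each group; bars at the side give the mean and SD of 5 mice, and red rings mark mouse 5 of each P70 group. The ages overlap in each panel, and the ringed mice are the highest P70 value for Mrpl46, Mrpl38, Mrpl57 and Mrpl33 in both genotypes.

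Mouse 5 of the P70 groups carried weight in these comparisons. In that mouse 55 of 78 members in the WT group and 63 in the KO group were the highest of the 5 mice. Leaving it out therefore lowers the P70 means of most members, so this setting cannot show whether members fall with age. Mouse 3 of the P21 groups, in which most members were also the highest, is still included in it. Without mouse 5, 4 members were called lower at P70 in WT mice, where 17.0% of all genes were then called. These were Mrpl57 (-0.39 ± 0.11), Mrpl15 (-0.31 ± 0.10), Mrpl33 (-0.30 ± 0.09) and Mrpl27 (-0.29 ± 0.08), with limma adjusted p-values from 0.0219 to 0.0462. In KO mice, 2 members were called lower without mouse 5, Mrpl54 (-0.26 ± 0.08) and Mrpl49 (-0.18 ± 0.06), where 21.3% of all genes were called. In KO mice the estimates of the 4 WT genes without mouse 5 were -0.26 for Mrpl57, -0.23 for Mrpl15, -0.25 for Mrpl33 and -0.21 for Mrpl27. The interaction of age and genotype called 0 of 78 members in this setting. Mrpl27, Mrpl54 and Mrpl49 are named for their calls here, after their values were seen. With mouse 3 of the P21 groups left out as well, only Mrpl57 and Mrpl27 were called in WT mice, both lower. In KO mice only Mrpl23 was then called, and it was higher at P70.

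Removing the trend of each library with transcript length and GC content gave calls in the other direction. Mrpl46 was then called higher at P70 in both genotypes, by 0.29 ± 0.07 in WT mice (limma adjusted p = 0.0153) and 0.27 ± 0.07 in KO mice (limma adjusted p = 0.0175). In KO mice 4 more members were called higher: Mrps18a (0.21 ± 0.05), Mrpl38 (0.22 ± 0.06), Mrps27 (0.23 ± 0.07) and Mrpl52 (0.29 ± 0.08), the last named after its values were seen. That made 1 of 78 in WT and 5 of 78 in KO mice, against 16.6% and 17.0% of all genes. With the correction and without mouse 5 the counts were 2 in WT (Mrpl46 higher, Mrpl57 lower) and 7 in KO mice, against 18.2% and 23.3%. In each of these settings the share of members called stayed below that of all genes.

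The genotype comparison asked whether loss of Katnal2 moved the same genes. At P21, 0 of 78 members and 0% of the 17610 genes were called, and 0 members had non-overlapping groups (0.460% of all genes). At an unadjusted p under 0.05 there were 0 members, against 2.44% of all genes. The members' median log2 fold change was 0.01, running from -0.18 to 0.18. The 95% interval lay within 1.5-fold for 78 of 78 members. The other alternatives also gave 0 calls among members at this age.

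The ends of that range belonged to a pair of mitochondria-specific small-subunit proteins. Mrps23 was at 709, 718, 925, 752 and 803 in P21 WT mice and at 709, 623, 893, 721 and 532 in P21 KO mice, a log2 fold change of -0.18 ± 0.12. Mrps35 was at 579, 415, 523, 393 and 533 in WT and at 531, 529, 702, 575 and 431 in KO mice, a log2 fold change of 0.18 ± 0.13. The groups overlapped for both. Leaving out single mice moved Mrps23 between -0.28 and -0.09 and Mrps35 between 0.09 and 0.26, each without mouse 3 or mouse 5 of the P21 KO group. Mrps30 (0.09 ± 0.07), Mrpl28 (0.09 ± 0.06), Mrpl41 (-0.09 ± 0.06) and Mrps9 (-0.06 ± 0.05) were the other members with the smallest p-values in their direction. Without mouse 3 of the P21 WT group Mrpl41 was at -0.042, and without mouse 3 of the P21 KO group Mrpl28 was at 0.057.

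At P70, 0 of 78 members and 0% of the 17613 genes were called between KO and WT mice, and 0 members had non-overlapping groups (0.193% of all genes). At an unadjusted p under 0.05 there were 0 members, against 1.13% of all genes. The median log2 fold change was 0.02, with a range from -0.17 to 0.24. It was above 0 in 52 of 78 members, against 47.8% of all genes. This tilt was not particular to the members. Estimates were above 0 for 36 of 36 nuclear complex I genes, 72 of 76 cytosolic ribosomal protein genes and 28 of 37 proteasome genes. For mitochondrial aminoacyl-tRNA synthetases it was 8 of 17. Without mouse 5 of the KO group the members' median was -0.05 and without mouse 5 of the WT group 0.10, so its sign is not fixed. The interval lay within 1.5-fold for 78 of 78. The median SE of the members was 0.12 at P70 and 0.08 at P21, so this comparison was the less precise of the pair.

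Mrps35 again had the highest estimate at P70. It was at 465, 469.9, 478, 403 and 451 in WT mice and at 412, 524.5, 569.7, 499.7 and 715 in KO mice, a log2 fold change of 0.24 ± 0.13. The KO values were higher in 4 of 5 mice than the highest WT value, and the fifth was below the median WT value. Without mouse 5 of both groups the estimate was 0.14. Mrps5, a bacterial-type small-subunit protein, had the lowest estimate. Its values were 1417, 1375, 1265, 1387.5 and 1583 in WT and 1426, 1196, 1166, 1178.5 and 1284 in KO mice, a log2 fold change of -0.17 ± 0.08.

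Mrpl2, a bacterial-type protein near the catalytic centre of the large subunit, was at 553.5, 436, 508.5, 495 and 639 in WT and at 501, 526, 642, 587 and 815 in KO mice at P70. Its log2 fold change was 0.21 ± 0.14. Mrps27, a mitochondria-specific small-subunit protein, differed by 0.15 ± 0.10. Without mouse 5 of the KO group these estimates were 0.10 for Mrpl2 and 0.076 for Mrps27. Mrpl39 differed by -0.11 ± 0.09 and Mrps18c by -0.10 ± 0.11. Leaving out single mice moved Mrps18c between -0.18 (without mouse 5 of the KO group) and -0.053 (without mouse 4 of the KO group). Mrpl39 was at -0.16 without mouse 2 of the KO group. The limma adjusted p was 1.00 for each member in this comparison.

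Whether the age difference itself depended on genotype was tested as an interaction over the 20 mice. It called 0 of 78 members and 0% of the 17637 genes. At an unadjusted p under 0.05 there were 0 members, against 1.68% of all genes. The interval lay within 1.5-fold for 76 of 78 members. The estimates ran from -0.16 ± 0.16 (Mrps18c) to 0.21 ± 0.22 (Mrps23). Mrps27 (0.16 ± 0.13), Mrpl2 (0.18 ± 0.18), Mrps5 (-0.15 ± 0.11) and Mrpl39 (-0.14 ± 0.13) were the other members closest to a difference. Without mouse 5 of the P70 KO group the estimates were 0.11 for Mrps23, 0.077 for Mrpl2 and 0.085 for Mrps27. Leaving out single mice moved Mrps18c between -0.23 and -0.090, the latter without mouse 3 of the P21 KO group, which also moved Mrpl39 to -0.091.

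The members with assigned functions had age differences between -0.05 and 0.19 (log2) in WT mice, and several change sign with the processing. Mrpl12 had a log2 fold change of 0.01 ± 0.12 with age in WT mice and Mrpl10 one of -0.05 ± 0.10. Without mouse 5 these were -0.076 and -0.14. Mrpl3, the member with the highest total, was at 1647, 1457, 1723, 1646 and 1639.5 at P21 and at 1795, 1429, 1615.5, 1584 and 1548 at P70 in WT mice. Its 95% interval ran from -0.19 to 0.13 around a log2 fold change of -0.03. The disease-linked Mrps16, Mrps22 and Mrpl44 stood at 0.01 ± 0.13, 0.05 ± 0.08 and 0.13 ± 0.10 in WT mice. Without mouse 5 Mrps16 was at -0.093 and Mrpl44 at 0.083. Leaving out single mice moved Mrpl44 from 0.071 to 0.20. It moved Mrps22 from 0.0080 to 0.085, the lowest without mouse 1 of the P70 group. Among the S18 paralogs the age difference in WT mice was 0.19 ± 0.13 for Mrps18a, 0.16 ± 0.09 for Mrps18b and 0.09 ± 0.11 for Mrps18c. Without mouse 5 it was 0.068 for Mrps18a and 0.092 for Mrps18b. Leaving out single mice moved Mrps18c from 0.046 (without mouse 1 of the P70 group) to 0.14 (without mouse 3 of the P21 group). Mrps36, which is not ribosomal, had a log2 fold change of -0.03 ± 0.10 (-0.052 without mouse 5). Mrps30, of the large subunit, was at 475, 495, 552, 473 and 456 in P21 WT mice and at 559.7, 484, 511, 494 and 492 in P70 WT mice.

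Division by subunit or by origin gave medians close to 0 as well. In WT mice with age the median log2 fold change was 0.00 over the 51 large-subunit genes and 0.04 over the 26 small-subunit genes. In KO mice the medians were 0.01 and 0.02. The 29 large-subunit genes with a bacterial counterpart had a median of -0.03 in WT and 0.02 in KO mice. The 21 mitochondria-specific genes of that subunit had 0.05 and 0.01. Differences between these classes were not tested.

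The members' median differed more between single mice than between groups. In mouse 5 of the P70 KO group, 72 of 78 members lay above their group mean and 63 (80.8%) were the highest of the 5 mice, where 38.9% of all genes were highest in that library. In mouse 5 of the P70 WT group 71 lay above the mean and 55 (70.5%) were the highest, against 36.0% of all genes. In mouse 3 of the P21 KO and P21 WT groups 58 (74.4%) and 56 members (71.8%) were the highest, against 30.1% and 28.3% of all genes. The members' median deviation from the group mean was 0.30 and 0.29 (log2) in the P70 mice and 0.16 in both P21 mice, which are 1.23-, 1.22-, 1.11- and 1.12-fold. In the other 16 mice it lay between -0.13 and 0.06.

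The same 4 libraries were high for other sets of short, abundant transcripts. The sets below were chosen by gene name or transcript length. In the P70 KO mouse the median deviation was 0.37 for nuclear complex I genes, 0.28 for cytosolic ribosomal protein genes and 0.19 for proteasome genes. In the P70 WT mouse the values were 0.33, 0.29 and 0.14. Over all genes with a transcript under 1000 bases, the deviation was 0.29 in the P70 KO mouse and 0.27 in the P70 WT mouse. Over genes above 5000 bases it was -0.30 and -0.23.

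The members are short, with a median transcript of 1302 bases against 2877 for all genes tested. Within the members, the deviation of those under 1000 bases and of those above 2000 bases was 0.39 and 0.12 in the P70 KO mouse and 0.35 and 0.11 in the P70 WT mouse. In the P21 mice the same classes were closer, at 0.20 and 0.17 in KO and 0.19 and 0.15 in WT. The members that lay below their group mean in mouse 5 of the P70 KO group were Mrps30, Mrpl39, Mrpl1, Mrpl19, Mrpl50 and Mrpl35. Removal of the length and GC trend lowered the members' deviation to 0.15 and 0.13 in the P70 mice and 0.09 and 0.10 in the P21 mice. Cell type markers also varied in these libraries. In mouse 3 of the P21 KO and WT groups and mouse 5 of the P70 KO and WT groups, the median deviation was 0.60, 0.15, 0.29 and 0.35 for ependymal markers, above the range of -0.31 to 0.15 in the other 16 mice. For oligodendrocyte markers it was 0.28, 0.099, 0.27 and 0.080, against -0.21 to 0.15 in the other mice. For choroid plexus markers it was 0.38, -0.18, 0.14 and 0.51, against -0.37 to 0.29. Blood markers were at 0.50, 0.80, 0.34 and 0.059, against -0.84 to 0.53, and microglial markers at 0.16, 0.022, 0.22 and 0.20, against -0.32 to 0.22. Endothelial markers were at -0.40, -0.066, -0.12 and 0.092, against -0.19 to 0.37, and markers of immature neurons at 0.085, 0.064, -0.23 and -0.14, against -0.17 to 0.20. Astrocyte markers were at 0.14, -0.028, -0.094 and 0.012, against -0.17 to 0.15, and oligodendrocyte precursor markers at 0.13, -0.0022, 0.13 and 0.095, against -0.17 to 0.11. Neuronal markers deviated by -0.048 to 0.055 in the 4 libraries. The part of these cell types in the members' values was not tested.

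**Figure D4:**
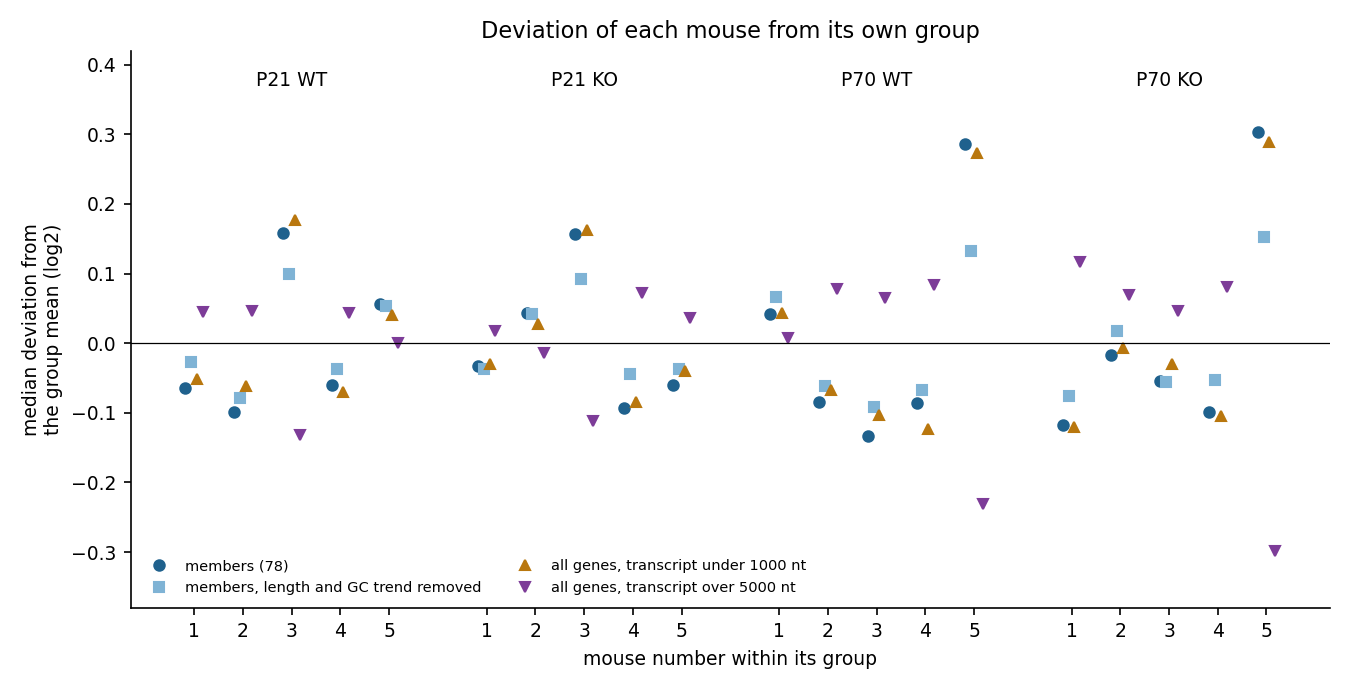
Median deviation of each mouse from its own group mean (log2, linear axis) for the 78 members (circles), the members after removal of the length and GC trend (squares), all genes with a transcript under 1000 nt (upward triangles) and over 5000 nt (downward triangles). Mouse 3 at P21 and mouse 5 at P70 stand above their groups at 0.16 to 0.30 for the members, with the long genes on the other side of 0.

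The mitochondrial genome's own transcripts went the other way from the members in both P70 libraries and the same way in both P21 libraries. Their median deviation was -0.35 in mouse 5 of the P70 KO group and -0.22 in mouse 5 of the P70 WT group. In mouse 3 at P21 it was 0.06 in KO and 0.17 in WT, where the members were at 0.16. Poly-A selection reads the polyadenylated mitochondrial messages and not the mitochondrial genome's copy number.

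Other genes of mitochondrial translation were examined as lists. The 5 mitoribosomal proteins with other names and the 25 assembly factors of the mitoribosome had 0 called members with age in either genotype. Their medians were 0.04 and 0.03 in WT and 0.10 and 0.06 in KO mice. The 17 mitochondrial aminoacyl-tRNA synthetases, which charge the organelle's tRNAs, had 0 calls and medians of 0.03 and -0.01. Of 13 translation factors, 1 fell in WT mice, Mtif2, which brings the initiator tRNA to the small subunit, by 0.32 ± 0.09 (log2, limma adjusted p = 0.0363), and 0 were called in KO mice. A single call in 13 is a share below the 9.32% of all genes called in WT mice. Without mouse 5 Mtif2 fell by 0.28 ± 0.08 in WT mice (limma adjusted p = 0.0301). In KO mice its log2 fold change was -0.16 ± 0.09 with all mice and -0.10 ± 0.07 without mouse 5.

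Of the 13 proteins encoded in the mitochondrial genome, the substrates of this translation system, 0 were called in WT mice with age. In KO mice 2 fell: mt-Nd3, a complex I subunit, by 0.55 ± 0.13 (limma adjusted p = 0.0179) and mt-Co3, a cytochrome oxidase subunit, by 1.08 ± 0.30 (limma adjusted p = 0.0466). The share of all genes called in KO mice was 8.32%. Without mouse 5 both remained called in KO mice, and mt-Co3 was also called in WT mice, at -0.99 ± 0.19 (limma adjusted p = 0.00366). The median over the 13 in KO mice was -0.08, with 3 above 0. At P21 the mean of mt-Co3 was 40159 in WT and 55801 in KO mice, a genotype estimate of 0.40 ± 0.25. Sequence shared with other genes was examined for the members only. How reads of mt-Nd3 and mt-Co3 were assigned was therefore not tested. Lists of 10 genes of mitochondrial DNA maintenance and transcription and 12 markers of mitochondrial mass had 0 calls in either genotype. Without mouse 5 these other lists of mitochondrial translation, DNA maintenance and mass had at most 1 call each. No gene of these lists was called between genotypes.

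**Figure D5:**
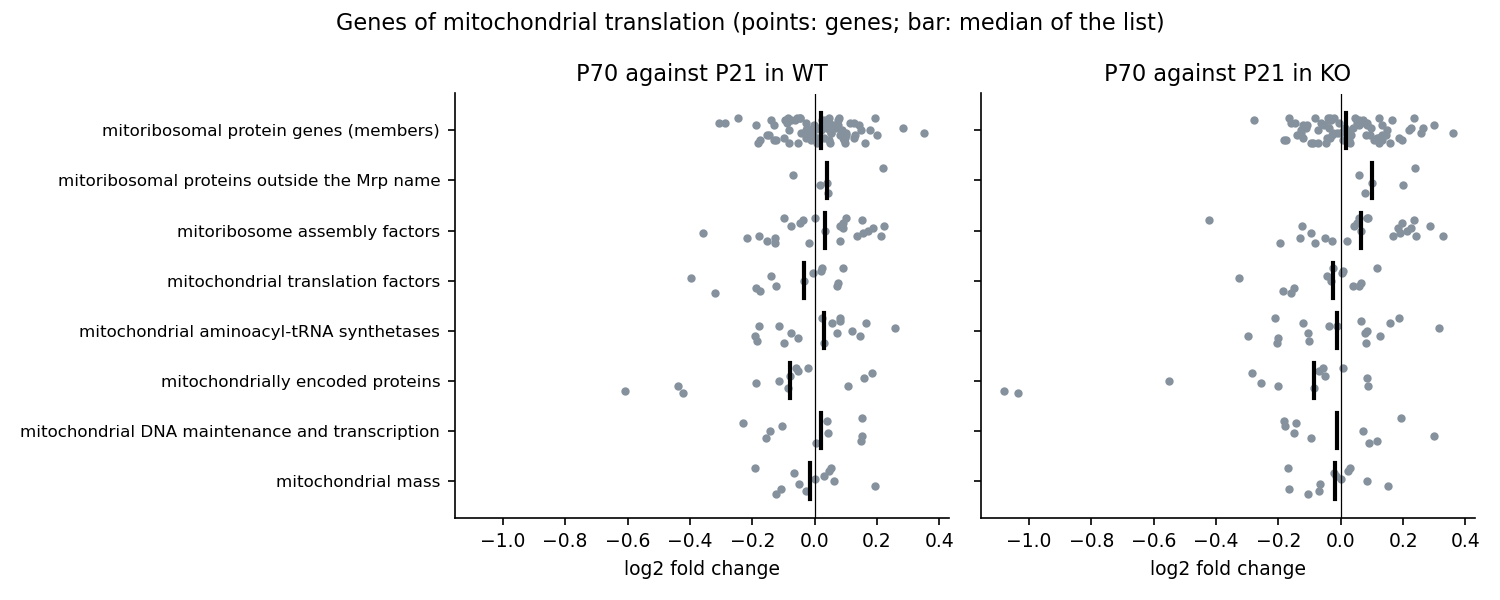
Log2 fold change from P21 to P70 in WT (left) and KO mice (right), n = 5 mice per group; each point is a gene of the list named at the left and each bar the median of that list. The medians lie between -0.08 and 0.10, and the lowest points in both panels belong to proteins encoded in the mitochondrial genome.

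Several cell type marker lists moved with age. All 7 oligodendrocyte markers fell in both genotypes, with medians of -1.09 in WT and -1.26 in KO mice, and their summed level went from 380331 to 429029 at P21 to 160539 to 184163 at P70 in WT mice. Of 6 oligodendrocyte precursor markers, 5 fell in WT and 4 in KO mice. Of 8 markers of immature neurons and progenitors, 6 fell in WT and 4 in KO mice. Blood markers, among them the haemoglobin genes, fell in 5 of 5 cases in WT (median -2.01) and 4 of 5 in KO mice (median -0.96). Of 8 neuronal markers, Snap25 rose in both genotypes, by 0.25 and 0.29, and Slc17a7 fell in WT mice by 0.19. Of 6 endothelial markers 2 fell in WT and 1 in KO mice, and 2 of 6 choroid plexus markers rose in WT mice. Astrocyte, microglial and ependymal markers had 0 calls with age. Without mouse 5 the counts for oligodendrocytes were again 7 of 7 in both genotypes and those for precursors were 5 and 6 of 6, whereas 2 neuronal markers rose and 2 fell in each genotype. Among ependymal markers Mia was then called lower in WT and Dnah11 higher in KO mice, and among choroid plexus markers Kl was called higher in KO mice. Of 6 endothelial markers 3 were then called lower in WT mice, and 1 higher and 2 lower in KO mice. Immature neuron markers then had 6 lower in WT and 1 higher and 5 lower in KO mice, and 5 of 5 blood markers were lower in both. None of these markers was at 0 in a whole group, and their part in the members' values was not tested.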

How the data were processed

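The deposited table holds gene-level signal values for 20 whole-brain libraries. Per the submitters' processing notes and the methods, the authors estimated transcript abundance with Salmon 1.1.0 on GRCm38 from TruSeq libraries, which do not mark strand, summed it to genes and normalised it with DESeq2 (1.26.0 in the processing notes, whereas the methods name another version). The values are therefore not raw counts, whole reads could not be recovered from them, and no count model was run. Gene names, positions and lengths came from GENCODE M21, and promoters from the RefSeq table. Genes with a mean of at least 10 in the mice compared were tested on log2(value + 1) with limma 3.58.1 (intensity trend, R 4.3.3) and Benjamini-Hochberg adjustment, after tests on simulated data. Each comparison used its own groups, and the interaction used all 20 mice. Intervals are 95%. Each library is a separate mouse, but litters are not given.

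The members and gene lists were chosen with earlier results of these data known. Named members are those with the 3 smallest p-values in each direction per comparison, the ends of the level order, Katnal2, and members with assigned functions (S18 paralogs, stalk, disease-linked and others). Others are said to be named after their values were seen. Alternatives covered normalization, filters, pseudocounts, length and GC content, the replicate number and left-out mice.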

Additional observations from a re-analysis of the deposited data

Results flagged for a closer look

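In groups of 5 mice, a mouse was singled out where its gap to the nearest other mouse exceeded 0.71 of the group's range. Over the named members and the members' median this was tested 136 times, and 18 cases (13.2%) were found. Chance gives about 1 in 20, and the cases are not independent, because most come from the same 2 libraries.

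Mouse 5 of the P70 KO group was high for Mrpl38 (1424 against 919 to 982 in the other mice), Mrpl28 (1336), Mrpl41 (1029), Mrps27 (901), Mrpl42 (1133), Mrps18a (1183), Mrpl10 (1268), Mrps16 (552) and Mrpl58 (1218). The members' median deviation was also singled out in that mouse, at 0.303 (log2). Mouse 5 of the P70 WT group was high for Mrpl38 (1262), Mrpl28 (1275), Mrpl17 (1040.1), Mrps18b (501), Mrpl10 (1394) and Mrpl58 (1179). The remaining 2 cases were Mrpl41 in mouse 3 of the P21 WT group (972 against 811 to 839) and Mrpl39 in mouse 2 of the P70 KO group (607 against 482 to 513). Each of the 18 lay above the other mice of its group.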

How the results depend on the processing

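The counts of called members between genotypes and in the interaction stayed at 0 under each alternative run. With age, the length and GC correction gave 1 called member in WT and 5 in KO mice; without both P70 mice numbered 5, 4 and 2; without mice 3 and 5, 2 and 1; with the correction and without mouse 5, 2 and 7. Without mice 3 and 5 the WT calls were Mrpl57 (-0.33 ± 0.10) and Mrpl27 (-0.25 ± 0.07), both lower at P70. The KO call in that setting was Mrpl23, which was higher at P70 (0.44 ± 0.13). Mrpl15, Mrpl33, Mrpl54 and Mrpl49 were not called there. The cause of these shifts was not tested. No share of all genes called is given for the setting without mice 3 and 5, so its counts are not compared with all genes. The settings that leave out mice 3, or join the correction with left-out mice or the block, were chosen after seeing the data. An unadjusted p under 0.05 gave 4 and 5. Leaving out single mice gave 0 to 4 in WT and 0 to 2 in KO mice, the highest counts each time without mouse 5 of the P70 group. Most members were the highest in that mouse, so leaving it out lowers their P70 means. Without that mouse, 17.0% of all genes were called in WT and 21.3% in KO mice. The members' median log2 fold change with age ran from -0.04 to 0.06 in either genotype, so its sign is not fixed. Between genotypes, leaving out single mice moved it from -0.03 to 0.04 at P21 and from -0.05 to 0.10 at P70. The members named for their p-values kept their direction in each alternative. So did Mrps18a, Mrps18b, Mrps18c, Mrps22 and Mrpl44 in the WT age comparison, whereas Mrpl10, Mrpl12, Mrpl3, Mrps16, Mrps36 and Mrps11 did not. With the length and GC correction, with or without the block, Mrpl12 was -0.034, Mrpl3 0.018 and Mrps36 0.067. Without both P70 mice numbered 5, Mrpl12 was -0.076, Mrps16 -0.093 and Mrps11 -0.098, and with the correction as well Mrpl12 was -0.039, Mrps16 -0.059, Mrps11 -0.039 and Mrps36 0.064. Without mice 3, Mrpl10 was 0.0038 and Mrps36 0.0097, and without mice 3 and 5 Mrpl12 was -0.0047, Mrpl3 0.0049, Mrps16 -0.032 and Mrps11 -0.082. Leaving out single mice moved Mrpl10 from -0.14 to 0.0068, Mrpl12 from -0.076 to 0.082, Mrpl3 from -0.071 to 0.012, Mrps16 from -0.093 to 0.072, Mrps36 from -0.073 to 0.017 and Mrps11 from -0.098 to 0.096 in WT and from -0.17 to 0.035 in KO mice. The correlations between deviations of same-numbered WT and KO mice were 0.031, -0.009, 0.26, 0.147 and 0.07 at P21 and 0.075, 0.152, 0.17, 0.175 and 0.705 at P70. They were not above 0.1 for each number, and no label ties the mice, so the numbers were not used as pairs. No correlation between differently numbered mice is given, so these values cannot show whether the numbers mark pairs. In the age comparisons the block joins same-numbered mice of different ages, which no label links. The replicate block gave 0 calls among members in each comparison, and with the length and GC correction 1 in WT and 2 in KO mice with age. No share of all genes called is given with the block, so these counts too are not compared with all genes. The smallest differences these data resolve are set by 5 mice per group, and the depth behind each value is known only approximately.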
